A study of Mus musculus with 11 samples.

Results

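Exon usage was examined in Ngrn, Camk2d and Phactr3 in the cerebrum of Polg mutator mice. These 3 genes hold 97 of the 358756 exon bins that were counted, with 6 bins in Ngrn, 67 in Camk2d and 24 in Phactr3. A bin is the stretch between neighbouring exon boundaries in the annotation of a gene. The genes were selected because the usage of some of their bins differed between mutator and WT/WT mice in these same counts. Usage changes and shares of these bins are therefore given as a description, with no p-value, and the bins called by that contrast are named only as the ones that led to the choice.

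Ngrn encodes neugrin, a mitochondrial protein that is needed to keep the large ribosomal RNA of the organelle and so for translation of the proteins encoded by mitochondrial DNA. Camk2d encodes the delta subunit of calcium/calmodulin-dependent protein kinase II, which turns calcium signals into phosphorylation in neurons and heart muscle. The variable linker of this kinase is built from alternative exons that steer the enzyme to different places in the cell. Phactr3, also named scapinin, encodes a phosphatase and actin regulator that binds protein phosphatase 1 and actin and is abundant in brain.

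Poly(A)+ RNA came from the cerebrum of 11 male C57/Bl6 mice aged 1 year. Of these, 7 were mutators, homozygous for the D257A knock-in allele of Polg that impairs proofreading by the mitochondrial DNA polymerase, 3 were WT/WT and 1 was WT/D257A, all bred from heterozygous parents. The comparison asks which changes of nuclear transcripts accompany the mitochondrial DNA mutations. Gene counts were available for all 11 mice and exon bin counts for 10, without the WT/D257A mouse. In mutators the knock-in allele was present in every cell from birth, so no cell type can be singled out as the one affected. RNA integrity numbers lay between 7.8 and 9.6 over the study, and libraries were made with random primers and sequenced as 100-bp read pairs with 6 libraries in a pool.

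Gene counts summed to between 28249345 (mouse 246) and 121182250 (mouse 205) in the controls, with a median of 52981946 (n = 4). In the mutators they summed to between 37821243 (mouse 249) and 91219204 (mouse 248), with a median of 55741011 (n = 7). Per mouse, the bins of Ngrn held between 586 and 2236 counts, those of Camk2d between 4918 and 24308, and those of Phactr3 between 3950 and 16793. Ngrn thus had the lowest total of the 3 genes, and the counts behind single bins are given with their shares. A read pair that spans several bins was counted in each of them, so neighbouring bins share reads.

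The level of the whole gene is a separate measure from the share of a bin, and it was tested between 7 mutators and 4 controls with edgeR's quasi-likelihood test and Benjamini-Hochberg adjustment over 17983 genes. Of all genes tested, 1.24% had an adjusted p under 0.05 (0.439% higher and 0.801% lower in mutators). None of the 3 genes did by edgeR (0 of 3) or by DESeq2 (0 of 3), and 1 of them, Camk2d, had an unadjusted p under 0.05 by edgeR. In the whole table, the log2 levels of controls and mutators did not overlap for 2.62% of genes, against 0 of these 3.

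Levels are given as CPM, the standard scale of a count relative to the size of its library. Ngrn had 27.7, 30.0 and 32.9 CPM in WT/WT mice 205, 239 and 246 and 27.3 in the WT/D257A mouse. The mutators lay between 26.3 and 29.1 CPM, with a median of 27.5. The means were 29.5 ± 2.58 (SD, n = 4) and 27.5 ± 1.09 CPM (SD, n = 7), a log2 change of -0.10 (standard error, SE, 0.06, adjusted p = 0.428 by edgeR). Mouse 246 was the highest of the 11, and the groups overlapped. Without mouse 246 the log2 change was -0.04.

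Camk2d had 152.1, 157.1 and 138.6 CPM in WT/WT mice 205, 239 and 246 and 126.7 in the WT/D257A mouse, which was the lowest of all. The mutators lay between 151.4 and 166.1 CPM, with a median of 154.8. The log2 fold change was 0.13 (SE 0.05, adjusted p = 0.233 by edgeR), from 143.7 ± 13.7 CPM (SD, n = 4) to 157.3 ± 5.96 (SD, n = 7), and the groups overlapped. With the WT/D257A mouse left out it was 0.07.

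Phactr3 had 125.7, 125.5 and 132.2 CPM in WT/WT mice 205, 239 and 246 and 139.8 in the WT/D257A mouse, the highest of all. The mutators lay between 118.5 and 136.3 CPM, with a median of 120.9. The log2 fold change was -0.07 (SE 0.05, adjusted p = 0.472 by edgeR), from 130.8 ± 6.73 CPM (SD, n = 4) to 124.2 ± 6.39 (SD, n = 7), and the groups overlapped. With the WT/D257A mouse left out it was -0.04. In whole tissue, a change in the number of cells of one type and a change of RNA per cell cannot be told apart.

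Between genes, levels can be compared only per length. Per kilobase of annotated exon, the controls had 20.4 ± 1.05 CPM of Phactr3, 17.2 ± 1.5 of Ngrn and 8.94 ± 0.854 of Camk2d (SD, n = 4). In the mutators the order by annotated length was the same, with 19.4 ± 1.00, 16.01 ± 0.633 and 9.79 ± 0.371 (SD, n = 7). By this length Phactr3 lay above Ngrn, and Ngrn above Camk2d, by more than the sum of their SDs in each group. The exonic lengths counted every annotated exon, so they exceed the length of any single transcript, and the order depends on them. Per kilobase of the most counted bin of each gene, Camk2d (bin 65) was at 22.9 CPM in WT/WT mice and 24.4 in mutators. This was above Ngrn (bin 5), at 14.02 and 13.7, and below Phactr3 (bin 22), at 29.8 and 28.7. Bin 65 belongs to 4 of 24 annotated transcripts of Camk2d, bin 5 to 3 of 3 of Ngrn and bin 22 to 6 of 8 of Phactr3. Ngrn bin 4, also in 3 of 3, was at 30.2 CPM per kilobase in WT/WT mice and 28.4 in mutators, above Camk2d bin 65. Which of Ngrn and Camk2d had the higher level thus depends on the length and the bin used.

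Usage of a bin was taken against the remaining bins of the gene, with edgeR's diffSpliceDGE, between the 7 mutators and the 3 WT/WT mice. Of the 97 bins, 80 passed the filter on low counts, 4 in Ngrn, 55 in Camk2d and 21 in Phactr3. Among these, 4 had an adjusted p under 0.05: bin 3 of Ngrn, bin 8 of Camk2d and bins 13 and 14 of Phactr3. Over the whole data 49 of 206930 bins did (0.0237%), in 28 gene groups. DESeq2 called 0 of the 4 bins, and limma called 3, without Phactr3 bin 13. Since the genes were chosen on this contrast, nothing is read from the comparison of these shares. The groups did not overlap in share for 5 of the 80 bins, which were bins 2 and 3 of Ngrn, bin 40 of Camk2d and bins 13 and 14 of Phactr3, and for 1.4% of all bins tested.

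**Figure D1:**
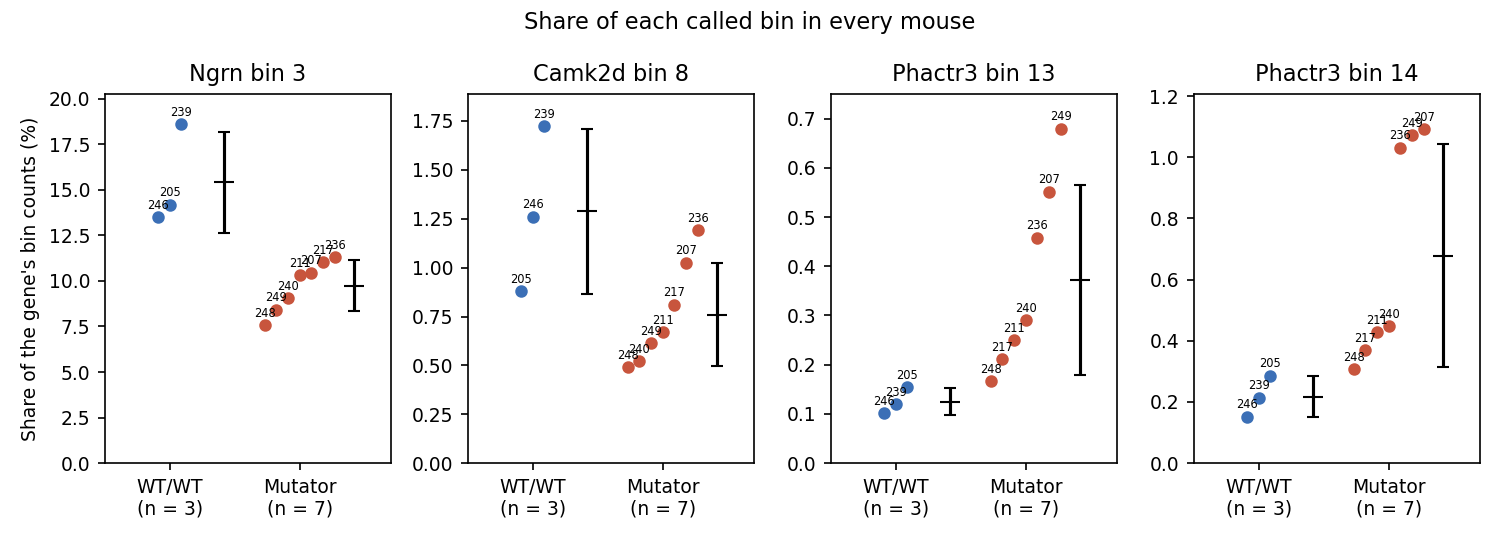
Share of each called bin in the bin counts of its gene (vertical axes, percent, each from 0), with 1 point per mouse labelled by its number and the mean and SD of each group beside the points. WT/WT mice lie above all mutators for Ngrn bin 3 and below all mutators for Phactr3 bins 13 and 14, while the groups overlap for Camk2d bin 8.

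Bin 3 of Ngrn covers chr7:87406310-87406706 (NCBIM37, mm9, plus strand), the 397 bases of the first intron. Of 3 annotated transcripts only 1 holds it, a transcript annotated as a retained intron, so reads inside it cannot come from the spliced transcripts. The bin made up 14.2%, 18.6% and 13.5% of Ngrn bin counts in WT/WT mice 205, 239 and 246. In the mutators it made up between 7.57% and 11.3%, with a median of 10.3%. All mutators were thus below all WT/WT mice, with mouse 239 the highest and mouse 248 the lowest.

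The mean share was 15.4% ± 2.77 (SD, n = 3) in WT/WT mice and 9.73% ± 1.41 (SD, n = 7) in mutators, and the log2 usage change was -0.66 (SE 0.11). Counts in the bin ranged from 60 to 317 per mouse. Measured per base, the intron had 29.3% ± 5.92 of the counts of bin 4, the exon that follows it, in WT/WT mice (SD, n = 3). In mutators it had 18.2% ± 2.56 (SD, n = 7), again with no overlap. Relative to bin 5 the values were 63.5% ± 15.2 and 38.1% ± 6.93 (SD, n = 3 and 7), so the level of intron coverage depends on the exon it is set against. Pairs that span several bins may raise the value of a short exon such as bin 4, which was not tested. The neighbours of the intron are the first exon, bin 2 (204 bases), and the second exon, bin 4 (111 bases). Bin 2 made up 8.14% ± 0.867 of the counts in WT/WT mice and 10.5% ± 1.24 in mutators, a log2 usage change of 0.38 (SE 0.12). Bin 4 stood at 14.7% ± 0.395 and 14.9% ± 0.674, and bin 5, the last coding exon with most counts, at 61.5% ± 3.35 and 64.6% ± 2.79 (SD, n = 3 and 7). The share of the intron was thus lower in mutators. Shares of a gene add up to a fixed total, so a lower share of the intron by itself raises those of the exons, each by the same factor. The ratio of mean shares, mutator to WT/WT, was 1.29 for bin 2, 1.01 for bin 4 and 1.05 for bin 5. The share of bin 2 thus rose more than those of the other 2 exons, and the cause was not tested. Per kilobase and library, bin 2 was at 9.06 ± 1.02 CPM in WT/WT mice and higher, at 10.8 ± 1.12, in mutators (SD, n = 3 and 7). Bins 4 and 5 were at 30.2 and 14.02 CPM in WT/WT mice and 28.4 and 13.7 CPM in mutators.

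**Figure D2:**
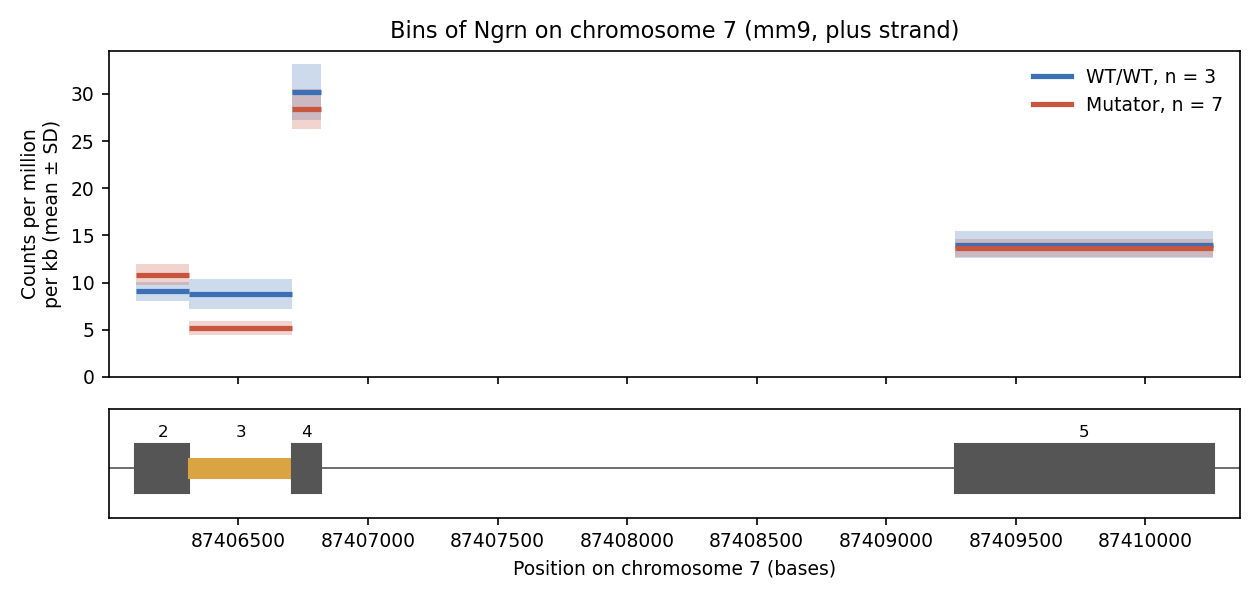
Bins of Ngrn on chromosome 7 (horizontal axis, bases of mm9) with the mean CPM per kilobase of each bin (vertical axis, band = SD) in 3 WT/WT and 7 mutator mice. Grey boxes are exons and the yellow box is the retained first intron, bin 3, where the mutators lie at 5.16 and the WT/WT mice at 8.81.

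The borders of this intron are shown because they are what the splicing machinery has to recognise. Capitals mark intron bases, read on the plus strand of NCBIM37 (mm9) at chr7:87406300-87406329 and chr7:87406667-87406716. The intron starts with GT and ends with AG.
Ngrn intron start: aggtggagagGTACCTGCTTCGTGGCGAGC
Ngrn intron end: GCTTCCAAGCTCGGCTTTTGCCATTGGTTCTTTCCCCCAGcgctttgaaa

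Ngrn lies on the same chromosome as Polg, with its start 0.812 Mb from that of Polg (chr7:86593677-86611248, minus strand). The mutant allele of Polg and the sequence linked to it separate mutators from WT/WT mice together, so their parts in the usage of Ngrn cannot be told apart. Polg itself had 66.1 ± 2.98 CPM in controls (SD, n = 4) and 63.9 ± 4.18 in mutators (SD, n = 7), a log2 change of -0.05 (SE 0.05, adjusted p = 0.707 by edgeR). Within 5 Mb to either side of Polg, 87 genes were tested and 3 were called (3.45%), all lower in mutators, where 1.24% of all genes were called and 0.801% were called lower. The 4 controls of this test included the WT/D257A mouse, which carried 1 copy of the mutant allele. DESeq2 called 7 near Polg, beside 615 of 17377 genes over all. By edgeR, 2 were called with WT/WT controls only, and between 2 and 6 with each mouse left out. Rlbp1, which encodes a retinaldehyde-binding protein, was at 16.7 ± 0.476 CPM in controls and fell to 10.4 ± 1.63 in mutators (SD, n = 4 and 7), with log2 change -0.68 (SE 0.09, adjusted p = 0.00112 by edgeR). Mfge8, a secreted protein that marks dying cells for uptake, and Abhd2, a lipid hydrolase, had log2 fold changes of -0.38 and -0.28 (SE 0.08 and 0.04, adjusted p = 0.0392 and 0.00208 by edgeR). All 3 genes lie within 1 Mb of Polg, on the side away from Ngrn, and their groups did not overlap. The groups did not overlap for 7 of the 87 genes, against 2.62% of all genes. Among them on the side of Ngrn, named after their values were seen, Hddc3 was at 14.6 ± 5.08 CPM in controls and 27.75 ± 2.21 in mutators (SD, n = 4 and 7), with log2 change 0.92 (SE 0.19, adjusted p = 0.0584 by edgeR), and D330012F22Rik had -0.46 (SE 0.13, adjusted p = 0.0821 by edgeR). The remaining genes on that side were Sec11a, with 0.10 (SE 0.06, adjusted p = 0.376 by edgeR), and Slc28a1, with -1.04 (SE 0.34, adjusted p = 0.127 by edgeR) at under 1 CPM in each group. In the same stretch 908 bins were tested, and the called bin among them is bin 3 of Ngrn, on which that gene was chosen, so that nothing is read from this count beside the 0.0237% over all bins.

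Bin 8 of Camk2d covers chr3:126299953-126300248 (mm9, plus strand). Its 296 bases lie in the first exon upstream of the coding sequence and are 77.4% G or C. It made up 0.880%, 1.72% and 1.26% of Camk2d bin counts in WT/WT mice 205, 239 and 246. In the mutators it made up between 0.491% and 1.19%, with a median of 0.669%. The groups overlapped, since mutators 207 and 236 were above WT/WT mouse 205.

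The mean share of bin 8 was 1.29% ± 0.421 (SD, n = 3) in WT/WT mice and 0.760% ± 0.264 (SD, n = 7) in mutators, a log2 usage change of -0.75 (SE 0.13). Counts in it ranged from 46 to 226 per mouse. The short bins before it in the same exon had changes of the same sign, at -1.06 for bins 4 and 5 (SE 0.41), -0.95 for bin 6 (SE 0.32) and -0.86 for bin 7 (SE 0.25). Bins 4 and 5 are 2 and 3 bases long and hold the same reads, between 1 and 15 counts per mouse. Bin 9, which follows bin 8, had -0.53 (SE 0.17), and -0.11 without mouse 239. With the share of GC-rich bins as a covariate, an alternative chosen after seeing the data, the changes were -0.42 for bins 4 and 5, -0.40 for bin 6, -0.38 for bin 7 and -0.06 for bin 9. Bin 65, in the last exon, held the most counts and stood at 11.1% ± 0.959 and 11.2% ± 0.765 of the gene (SD, n = 3 and 7). The other 48 tested bins of Camk2d had log2 usage changes between -0.44 and 0.51, of which 26 were positive and 22 negative. Among them, named after their values were seen, bins 10 to 13 continue the same exon after bin 9. Their changes were -0.44, -0.30, -0.21 and -0.13 (SE 0.17, 0.13, 0.12 and 0.11).

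The linker exons, the part of Camk2d best known for alternative splicing, had shares whose groups overlapped. The exon of 33 bases, which carries the nuclear localisation signal of the delta B form, made up 0.118% ± 0.0504 of Camk2d counts in WT/WT mice and 0.134% ± 0.0453 in mutators (SD, n = 3 and 7). It had between 3 and 42 counts per mouse, which limits what can be seen of it. The exon of 60 bases made up 3.77% ± 0.113 and 3.58% ± 0.165, and the exon of 42 bases 2.13% ± 0.0428 and 2.06% ± 0.0947. Per base, the exon of 42 bases had 92.3% ± 1.1 of the counts of bin 40, the exon piece before the linker, in WT/WT mice, and the exon of 33 bases had 6.51% ± 2.75 (SD, n = 3). In mutators these ratios were 96.7% ± 5.73 for the exon of 42 bases and 7.96% ± 2.51 for the exon of 33 bases (SD, n = 7). The exon of 33 bases was thus a minor part of Camk2d RNA in the cerebrum of both groups. These linker exons and the ratios of neighbouring bins were picked for display after their values had been seen.

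The linker exons are shown because they define the named forms of the kinase. Capitals mark exon bases on the plus strand of NCBIM37 (mm9), at chr3:126505855-126505887, chr3:126508775-126508834 and chr3:126511126-126511167.
Camk2d exon of 33 bases: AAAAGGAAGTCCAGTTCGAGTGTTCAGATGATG
Camk2d exon of 60 bases: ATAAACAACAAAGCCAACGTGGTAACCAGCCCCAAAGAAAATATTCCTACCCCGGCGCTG
Camk2d exon of 42 bases: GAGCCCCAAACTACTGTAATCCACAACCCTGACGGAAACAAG

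The base composition of the libraries was measured beside these shares. Bins of at least 50 bases with at least 65% G or C took 3.61%, 4.24% and 3.76% of the bin counts in WT/WT mice 205, 239 and 246 and between 3.16% (mouse 248) and 3.92% (mouse 207) in mutators, with the 3 genes left out. The difference of the group means did not pass a 2-sided exact permutation test (3.87% ± 0.327 and 3.55% ± 0.284, SD, n = 3 and 7, p = 0.158, adjusted p = 0.317 over 4 library measures). Within the 7 mutators, the share of bin 8 and that of GC-rich bins had a Pearson r of 0.941 and a Spearman rho of 0.964, given as a description with no p, since the bins were picked on their shares. Without mice 248 and 207, which were farthest from the median, r was 0.947. This was 1 of 12 relations computed between the bin shares and the library measures.

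Ngrn bin 3 is 57.4% G or C, under the 65% that defines a GC-rich bin, while its neighbour bin 2 is 66.7%. The log2 usage change of bin 2 was 0.38, and 0.54 with the GC-rich share as a covariate. Ngrn bin 3 gave r = 0.808 with the GC-rich share in the 7 mutators and rho = 0.857, with r = 0.739 without mice 248 and 207. The 2 bins of Phactr3 gave r = 0.665 and rho = 0.429, with r = 0.387 without those mice. With the GC-rich share as a covariate, the log2 usage change was -0.24 for Camk2d bin 8 and -0.45 for Ngrn bin 3, and neither was called. It was 1.72 for Phactr3 bin 13 and 1.86 for bin 14. WT/WT mouse 239 had both the highest GC-rich share and the highest share of Camk2d bin 8 and Ngrn bin 3. Without it, the changes were -0.42 and -0.49, and neither of these bins nor Phactr3 bin 13 was called. Since the same contrast chose the bins, which of them kept a call supports nothing. The part of base composition in the group difference was not tested.

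**Figure D3:**
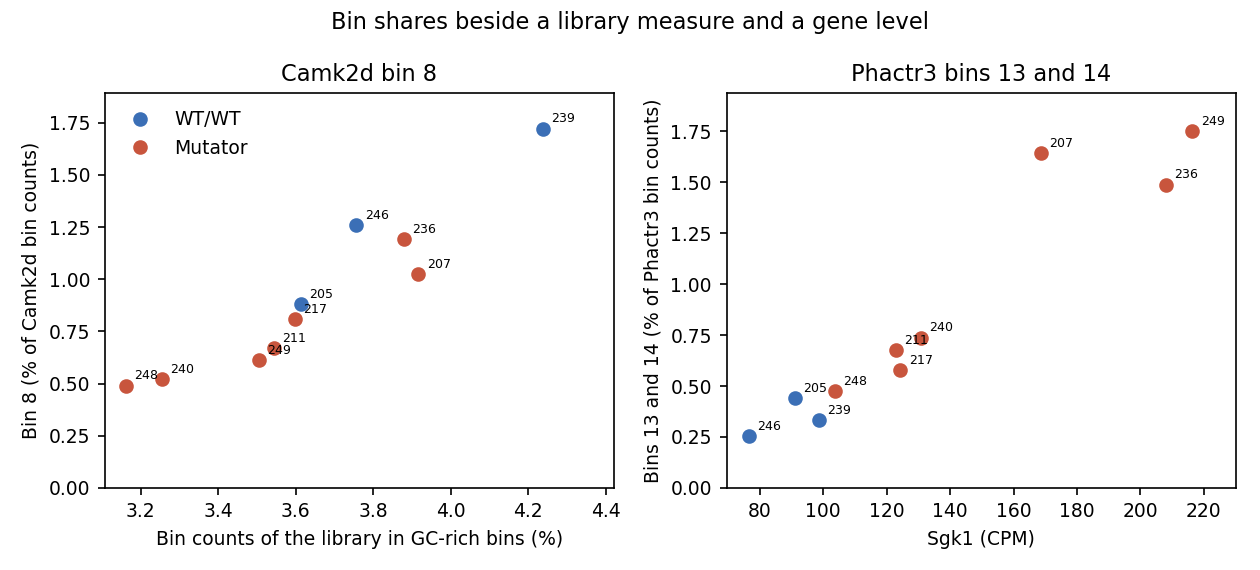
Left, share of Camk2d bin 8 in Camk2d bin counts (vertical axis, percent) against the share of each library's bin counts in GC-rich bins (horizontal axis, percent). Right, share of Phactr3 bins 13 and 14 in Phactr3 bin counts (vertical axis, percent) against the level of Sgk1 (horizontal axis, CPM). Each point is 1 mouse, labelled by number, 3 WT/WT and 7 mutators. Mouse 239 is at the upper right of the left panel, and mutators 207, 236 and 249 are at the upper right of the right panel.

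Bins 13 and 14 of Phactr3 cover chr2:178062261-178062496 and chr2:178062497-178062842 (mm9, plus strand). They lie directly upstream of bins 15 and 16, an exon of the protein-coding transcripts. Bin 13 belongs to 1 and bin 14 to 2 of 8 annotated transcripts, all of them annotated as retained introns that start inside the intron. Bin 14 made up 0.286%, 0.214% and 0.152% of Phactr3 bin counts in WT/WT mice 205, 239 and 246. In the mutators it made up between 0.308% and 1.09%, with a median of 0.447%. All mutators were above all WT/WT mice, but mutator 248 was close to WT/WT mouse 205.

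The mean share of bin 14 was 0.217% ± 0.0670 (SD, n = 3) in WT/WT mice and 0.678% ± 0.365 (SD, n = 7) in mutators, a log2 usage change of 1.45 (SE 0.22). Bin 13 stood at 0.125% ± 0.0273 and 0.372% ± 0.193, a change of 1.40 (SE 0.29). These shares rest on few reads, between 6 and 107 counts per mouse in bin 14 and between 4 and 54 in bin 13. Bin 13 was not called without mouse 205, 207, 239, 246 or 249, each left out in turn. Summed, a choice made after their values were seen, bins 13 and 14 made up 1.64%, 1.49% and 1.75% in mutators 207, 236 and 249 and between 0.474% and 0.737% in the other 4 mutators. The mutators were thus spread more widely than the WT/WT mice, which lay between 0.253% and 0.441%.

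The exons around the intron had nearly equal shares in both groups. Bin 12, the exon upstream, made up 7.48% ± 0.0541 of the counts in WT/WT mice and 7.58% ± 0.171 in mutators, and bin 15 made up 3.63% ± 0.0434 and 3.70% ± 0.222 (SD, n = 3 and 7). Per base, bin 14 reached 0.594% ± 0.181 of the counts of bin 16 in WT/WT mice and 1.83% ± 0.982 in mutators, so its coverage was a small part of that of the exon that follows. Bin 22, which had the most counts, stood at 10.6% ± 0.269 and 10.4% ± 0.565. Bin 24, which only 1 transcript holds, had between 3 and 23 counts per mouse and a usage change of 0.27 (SE 0.33). The other 15 tested bins had changes between -0.12 and 0.15, of which 7 were positive and 8 negative.

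The sequence around the annotated start of bin 13 is shown because the longer of these transcripts begins there, within the intron. It is read from the plus strand of NCBIM37 (mm9) at chr2:178062161-178062360, and capitals mark bases of bin 13. The border of bins 14 and 15 lies in chr2:178062803-178062852, with intron bases in capitals, ending with AG.
Phactr3 start of bin 13: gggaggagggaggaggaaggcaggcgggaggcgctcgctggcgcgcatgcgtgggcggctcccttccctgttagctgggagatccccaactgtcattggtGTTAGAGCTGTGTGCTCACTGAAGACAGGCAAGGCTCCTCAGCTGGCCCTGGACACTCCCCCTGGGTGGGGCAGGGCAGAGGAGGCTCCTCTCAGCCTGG
Phactr3 end of bin 14: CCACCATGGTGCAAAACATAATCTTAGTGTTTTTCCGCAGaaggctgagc

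The shares of these bins were compared with the levels of the 10309 genes with a mean of at least 10 CPM, over the 10 mice with bin counts, after their values had been seen. Phactr3 bins 13 and 14 together were most like Mfsd2a, a transporter of lipids that carry docosahexaenoic acid at the blood-brain barrier (Pearson r = 0.975, Spearman rho = 0.976), and Sgk1, a kinase induced by glucocorticoids and osmotic stress (r = 0.968, rho = 0.964). In the 7 mutators alone, r was 0.969 for Mfsd2a and 0.954 for Sgk1. Sgk1 was at 91.1, 98.5 and 76.5 CPM in WT/WT mice 205, 239 and 246 and between 103.7 and 216.4 CPM in mutators, with a median of 130.8. Its log2 fold change was 0.82 (SE 0.23, adjusted p = 0.123 by edgeR). Mutators 249, 236 and 207 were the highest for both. Ptpn11, a tyrosine phosphatase, followed (r = 0.935, rho = 0.903, and r = 0.912 in the mutators).

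Camk2d bin 8 was most like Jund, a subunit of the AP-1 transcription factor (r = 0.971, rho = 0.988), Lrfn4, a synaptic adhesion protein (r = 0.963, rho = 0.976), and Stub1, a ubiquitin ligase (r = 0.955, rho = 0.952). Ngrn bin 3 was most like Uqcrfs1, the iron-sulfur subunit of respiratory complex III (r = 0.919, rho = 0.818), AC044864.3 (r = 0.910, rho = 0.903) and the histone gene H2afj (r = 0.902, rho = 0.903). In the 7 mutators alone, r was 0.942, 0.923 and 0.916 for the genes most like Camk2d bin 8, in that order, and 0.761, 0.733 and 0.918 for those most like Ngrn bin 3. Of these, AC044864.3 was called, with a log2 change of -0.47 (SE 0.08, adjusted p = 0.00408 by edgeR). These are the highest of 10309 correlations over 10 mice and include the difference between the groups. At the level of the whole gene over 11 mice, Ngrn was most like 8430410A17Rik (r = 0.923, rho = 0.827), Tomm7, a subunit of the import pore of the outer mitochondrial membrane (r = 0.913, rho = 0.873), and a gene whose symbol the count table holds as a date (r = 0.901, rho = 0.773). Camk2d was most like Dnm3, a dynamin (r = 0.955, rho = 0.882), Xiap, an inhibitor of apoptosis (r = 0.954, rho = 0.900), and Gm10103 (r = 0.951, rho = 0.936). Phactr3 was most like Ehd1, which acts in endocytic recycling (r = 0.953, rho = 0.864), Tmem38a, a cation channel of the endoplasmic reticulum (r = 0.943, rho = 0.927), and Akap1, an anchor for protein kinase A on mitochondria (r = 0.937, rho = 0.855).

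Around Ngrn, 16 genes of the mitochondrial ribosomal RNA module and of large subunit assembly were tested. None was called by edgeR (0 of 16) or DESeq2 (0 of 16), 0 had an unadjusted p under 0.05 by edgeR, and the median log2 fold change was -0.0032, beside 0.0014 over all genes. Of all 17983 genes edgeR called 1.24%, with 2834 at an unadjusted p under 0.05, and DESeq2 called 615 genes in all. Nothing particular to the list is read from its counts. The lowest p-values were those of Nsun4, an RNA methyltransferase of the mitochondrial ribosome (log2 fold change 0.16, SE 0.10, adjusted p = 0.437 by edgeR), and Dhx30, an RNA helicase (-0.05, SE 0.04, adjusted p = 0.553 by edgeR).

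Around Camk2d, 2 of 15 genes of calmodulin kinases, their regulators and calmodulin were called by edgeR, both lower in mutators, and 2 by DESeq2, with 5 at an unadjusted p under 0.05. Over all 17983 genes, 1.24% were called (0.801% lower), and 2834 had an unadjusted p under 0.05. Nothing particular to the list is read from this count. Camkk2, a kinase that activates CaMKI, CaMKIV and AMP-activated kinase, was at 143.9 ± 7.91 CPM in controls and fell to 117.0 ± 8.42 in mutators (SD, n = 4 and 7), with no overlap and at a log2 change of -0.30 (SE 0.05, adjusted p = 0.00746 by edgeR). Camk2n1, an inhibitor of CaMKII, was at 1194 ± 72.1 CPM in controls and fell to 1043 ± 42.5 in mutators (SD, n = 4 and 7), a log2 change of -0.19 (SE 0.05, adjusted p = 0.0441 by edgeR). The median log2 fold change of the list was -0.05, with 5 positive and 10 negative.

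Around Phactr3, 14 genes for Phactr proteins, protein phosphatase 1, actin and the SRF axis were tested. By edgeR 0 of 14 were called, with 7 at an unadjusted p under 0.05, beside 2834 of 17983 genes, and DESeq2 called 2, beside 615 genes in all. Srf, the transcription factor that works with the actin-sensing coactivators Mkl1 and Mkl2, was at 53.0 ± 2.24 CPM in controls and 46.5 ± 2.59 in mutators (SD, n = 4 and 7), a log2 change of -0.19 (SE 0.05, adjusted p = 0.0737 by edgeR). Phactr4 had a log2 change of 0.30 (SE 0.08, adjusted p = 0.0812 by edgeR). The median of the list was -0.00333.

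Of 45 splicing and polyadenylation factors tested, 0 were called by edgeR, with 13 at an unadjusted p under 0.05, beside 2834 of 17983 genes, and DESeq2 called 1, beside 615 genes in all. Their median log2 fold change was 0.07, and 38 were positive and 7 negative, where 9072 of all 17983 genes were positive. Srsf10, a splicing factor of the SR family, had a log2 change of 0.23 (SE 0.07, adjusted p = 0.0814 by edgeR) and Cpsf6, a subunit of a cleavage factor for polyadenylation, 0.17 (SE 0.05, adjusted p = 0.124 by edgeR).

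Markers of 9 cell types were measured in the same libraries. Neuron markers summed to between 4313 and 4654 CPM in controls and between 4200 and 4610 in mutators, with Snap25 the most abundant at a mean of 2179 CPM. Astrocyte markers summed to between 3422 and 3685 and between 3159 and 3486 CPM, with Slc1a2 at 2760. Oligodendrocyte markers summed to between 4135 and 4786 and between 4093 and 5758 CPM, with Mbp at 3038. The major cell types of cerebrum were thus represented at high levels, and markers of cerebellum, which was removed at dissection, summed to between 36.7 and 61.2 and between 53.2 and 74.6 CPM. Of this sum Zic1 alone had a mean of 54.2, and the mean of En2 was 2.44 and 2.69 CPM, that of Pcp2 0.482 and 0.609, that of Cbln3 0.589 and 1.55 and that of Gabra6 0.0370 and 0.379 (n = 4 and 7). Cbln3 and Gabra6 reached 4.54 and 1.46 CPM in the mutator highest for each, against 0.630 and 0.0641 in the control highest for each, and the groups overlapped for each of these genes. The part of such tissue in the bin shares was not tested.

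Endothelial markers summed to between 175.0 and 214.9 CPM in controls and between 181.4 and 233.4 in mutators, with Flt1 at a mean of 82.8. Microglial markers summed to between 175.4 and 223.1 and between 167.3 and 192.2 CPM, with Csf1r at 87.4. Markers of striatal projection neurons summed to between 510.3 and 635.5 and between 422.7 and 534.5 CPM, with Ppp1r1b at 254.5. The groups overlapped in the summed level of each of the 9 lists, also for the choroid plexus (between 501.4 and 681.1 and between 515.8 and 737.8 CPM, with Ttr at 588.5) and red blood cells (between 57.5 and 198.3 and between 89.7 and 256.9 CPM, with Hbb-b1 at 70.6). Of 43 marker genes tested, 2 were called by edgeR, both lower in mutators, with 14 at an unadjusted p under 0.05, beside 1.24% called and 2834 of 17983 at an unadjusted p under 0.05 over all genes. DESeq2 called 5, beside 615 of 17377 genes to which it gave an adjusted p. These 5 were Opalin, Adora2a, Slc1a2, Mag and Flt1. Of them Flt1 was higher in mutators, at a log2 change of 0.36 (SE 0.09, adjusted p = 0.0615 by edgeR). Opalin of oligodendrocytes had a log2 change of -0.81 (SE 0.16, adjusted p = 0.0385 by edgeR), and Adora2a of striatal projection neurons -0.35 (SE 0.08, adjusted p = 0.0376 by edgeR). The part of cell composition in the bin shares was not tested.

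Other measures of the libraries were given by the share of reads in no bin and by depth. Reads in no bin made up 20.7% ± 0.0742 in WT/WT mice (SD, n = 3) and 21.8% ± 0.956 in mutators (SD, n = 7, 2-sided exact permutation p = 0.0667, adjusted p = 0.267), with mouse 248 the highest at 23.4%. The groups did not overlap, the highest WT/WT mouse being at 20.77% and the lowest mutator at 20.78%, and the part of this measure in the bin shares was not tested. Bins that belong only to retained-intron transcripts took 0.570% ± 0.0268 and 0.596% ± 0.0445 of bin counts (exact permutation p = 0.4, adjusted p = 0.533, n = 3 and 7). The groups overlapped in this share. Summed bin counts lay between 24640608 and 105836056 in WT/WT mice and between 33279016 and 82975400 in mutators (exact permutation p = 0.692, adjusted p = 0.692, n = 3 and 7). The smallest p that 120 arrangements can give is 0.00833.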

How the data were processed

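Alignment to mm9 by the authors used TopHat2 2.0.6 and Bowtie2 2.0.2.0 and reads were counted per gene and per exon bin with HTSeq 0.5.3p9, per the labels. The gene counts and exon bin counts were used as deposited. The authors' comparison columns hold fold changes and p-values and were not used. Reads in no bin (between 20.6% and 23.4% per mouse) stayed out of library sizes. Genes were tested with edgeR 4.0.16 (TMM, filterByExpr, quasi-likelihood) in R 4.3.3, and bin usage with diffSpliceDGE, both with Benjamini-Hochberg adjustment and a threshold of 0.05, after checks on simulated data, in which diffSpliceDGE made more false calls than this threshold aims at, so bins called by it are not held to that rate. Alternatives used limma 3.58.1 and DESeq2 1.42.0.

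A share is the percent of a gene's summed bin counts in a mouse. Bins were matched to GENCODE M1, in which 96.98% of single-gene groups had the same number of bins. Named bins were those called, the 3 with the largest change, the most counted bin and the neighbours of called bins. Named genes of a list were those called or else the 2 of lowest p. Likeness used the 3 genes of highest Pearson correlation of log2 CPM. The members and lists were chosen with earlier results of these data known. Shares of bins 13 and 14 of Phactr3 combined and bin 40 of Camk2d were selected after their values were seen.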

Additional observations from a re-analysis of the deposited data

Results flagged for a closer look

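The share of Phactr3 bin 22 was 9.28% in mutator 236, far from the other 6 mutators, of which the nearest was at 10.3% and the highest at 11%. The summed level of the striatal projection neuron markers was 635 CPM in the WT/D257A mouse 237, far from the other controls, which lay between 510 and 521 CPM. A sample far from the rest of its group was looked for in 47 groups and found in 2, and chance alone gives about as many in this number of groups. The cause was not tested.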

How the results depend on the processing

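The number of exon bins called was 49. It was 25 with limma, 21 with merged gene groups left out, 5 with DESeq2, 12 with the GC-rich share as a covariate, and between 5 (without mouse 239) and 186 (without mouse 205) when each mouse was left out. The GC covariate, the merged groups for single bins, and the alternatives for the neighbourhood of Polg were chosen after seeing the data. DESeq2 called 0 of the 4 bins of the 3 genes, and limma called 3. Phactr3 bin 13 was not called without mouse 205, 207, 239, 246 or 249. The log2 usage change of Camk2d bin 8 was -0.24 with the covariate and between -1.07 and -0.42 with each mouse left out. The changes of the other called bins kept their sign in all 15 alternatives. These alternatives refit the same counts that chose the bins, so nothing is read from the kept sign.

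The number of genes called was 223. It was 615 with DESeq2, 346 with no filter on low counts, 50 with WT/WT controls only, and between 50 and 412 (without mouse 205) with each mouse left out. The log2 fold changes of the 3 genes kept their sign, and none was called, in all 15 alternatives, over which they lay between -0.13 and -0.04 for Ngrn, 0.07 and 0.18 for Camk2d, and -0.10 and -0.04 for Phactr3. Near Polg the 3 called genes were 7 by DESeq2, 2 with WT/WT controls only and between 2 and 6 with each mouse left out. The difference in reads in no bin lay between 0.855 and 1.29 percentage points with each mouse left out. The exact permutation p was 0.0238 without mouse 236 and 0.0476 without mouse 249, beside 0.0667 with all mice. The p-values without a mouse were adjusted neither for the 4 library measures nor for the refits, so nothing is read from them. The difference in depth lay between -26.7 M and 13.9 M bin counts (M for mega), reversed without mouse 205.

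Small changes of other bins changed sign. The usage change of Camk2d bin 65 was -0.0434 with the covariate and between -0.0379 (without mouse 239) and 0.0865 with each mouse left out. That of Phactr3 bin 22 was -0.0564 with the covariate and between -0.0313 and 0.0091 (without mouse 236) with each mouse left out, and that of bin 24 between -0.0103 (without mouse 205) and 0.7116. The log2 ratio of mean shares was -0.0522 for Ngrn bin 4 relative to the most counted bin. With each mouse left out it lay between -0.6814 and 0.0118 (without mouse 239) for Camk2d bin 9 and between -0.0400 (without mouse 239) and 0.0846 for bin 65. For Phactr3 bin 22 it was 0.0159 relative to the gene table and between -0.0350 and 0.0061 with each mouse left out (0.0061 without mouse 236, 0.0003 without mouse 246), and for bin 24 between -0.0046 (without mouse 246) and 0.8084. The cause was not tested. The paper describes the controls as littermates of the mutators, but the labels name neither litters nor pools. Each mouse has 1 genotype and replicate numbers only name mice, so no paired or blocked analysis was possible. Low counts limit the shares of Phactr3 bins 13 and 14 and of the Camk2d exon of 33 bases.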
